A study of Mus musculus with 6 samples.

Results

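The MiT/TFE transcription factors, the folliculin complex and the Rag GTPases C and D form a control loop at the surface of the lysosome. The 10 genes described here are its 4 transcription factors (*Mitf*, *Tfeb*, *Tfe3* and *Tfec*), folliculin (*Flcn*) with its binding partners *Fnip1* and *Fnip2*, the GTPases *Rragc* and *Rragd*, and the lysosomal glycoprotein gene *Gpnmb*. They were chosen by symbol from the 24972 gene rows of the table, because the pathway had been seen to be higher in macrophages lacking *Lcn10* in these same libraries. Their differences between the genotypes are therefore given as a description. Where they are counted by the test fitted over all genes, the count describes the choice and supports nothing beyond it. All 10 passed the filter on low values, a normalized count of at least 10 in at least 3 libraries.

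Expression was measured by RNA sequencing of untreated bone marrow-derived macrophages from wild-type (WT) mice and from Lcn10 knockout (Lcn10-KO) mice, with 3 libraries per genotype. *Lcn10* codes for a secreted carrier protein of the lipocalin family. The marrow cells were grown into macrophages in medium with L929 cell supernatant, which supplies macrophage colony-stimulating factor. Strain, sex and age are not in the labels, and whether the libraries of 1 genotype stem from different animals is not stated either. The p-values therefore reflect library-to-library spread, part of which may be technical.

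As background, when amino acids are plentiful the Rag GTPases hold both mTORC1, the growth kinase, and the MiT/TFE factors at the lysosome, where mTORC1 phosphorylates the factors and keeps them in the cytosol. Folliculin, bound to Fnip1 or Fnip2, is the GTPase-activating protein that switches RagC and RagD into the state that presents the factors to the kinase. Factors that escape enter the nucleus and bind the CLEAR motif, an E-box found before many lysosomal genes. The genes of folliculin, Fnip2 and RagD, and *Gpnmb*, are known targets of the same factors, which closes the loop. In the macrophage lineage Mitf and Tfe3 are also known for their part in osteoclasts.

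Values are normalized counts, read counts that the authors scaled between libraries. The libraries held about 18000000 to 24800000 reads, estimated from the value of a single read. *Lcn10* itself was listed at 0 in all 6 libraries, so it cannot check the genotype labels. The 8 macrophage markers were all present. Their summed normalized count was 275689 to 285481 for WT and 290127 to 303888 for Lcn10-KO, without overlap. The largest part came from *Lyz2*, with means of 174440 in WT and 187157 in Lcn10-KO, which was not called (limma adjusted p = 0.164). By the test used below 2 of the 8 were higher and 1 lower, against 4.70% higher and 5.14% lower over all tested genes. *Adgre1* and *Mertk* were higher, with log2 differences of 0.26 ± 0.06 (SE) and 0.44 ± 0.06, and *Csf1r* was lower (−0.23 ± 0.05). Among markers of other cells, the 8 of melanocytes, the cell type best known for Mitf, were all under 10 in every library, with *Tyr*, *Tyrp1*, *Dct*, *Mlana*, *Slc45a2* and *Oca2* at 0 throughout. Their sum was 3.39 to 6.88 in WT and 1.06 to 7.61 in Lcn10-KO. The summed count of 7 osteoclast markers was 532 to 771 in WT and 651 to 810.2 in Lcn10-KO, with the defining receptor gene *Calcr* at 0 in all 6 libraries. Of the 5 tested, 0 were called. *Mmp9* and *Ctsk* were higher in Lcn10-KO without overlap (log2 differences 0.92 ± 0.26 and 0.39 ± 0.12, limma adjusted p = 0.0528 for each). *Acp5* (0.15 ± 0.19), *Dcstamp* (−0.13 ± 0.24) and *Ocstamp* (−0.30 ± 0.36) overlapped between the genotypes. The 7 endothelial markers summed to 1381 to 1572 and 1476 to 2025, and the 7 fibroblast markers to 2882 to 4472 and 3786 to 4270, so both sums overlapped between the genotypes. Of the endothelial markers *Vwf*, the largest part of the sum, was called higher (limma adjusted p = 0.0424). Lcn10-KO replicates 2 and 3 lay above every WT library in *Emcn* (121 and 62.4, against 27.2 to 31.8) and *Pecam1* (161 and 89.3, against 41.1 to 67.5). The same held for *Cdh5*, *Tie1* and *Tek*, but not for *Kdr*. Lcn10-KO replicate 1 was above the WT range in none of these. *Emcn*, *Pecam1*, *Cdh5*, *Tie1* and *Kdr* were not called, and *Tek* was not tested. The 7 mast cell markers summed to 30.7 to 43.2 in WT and 47.4 to 58.3 in Lcn10-KO, without overlap, nearly all of it from *Kit*, which was not called (limma adjusted p = 0.14), with *Mcpt4*, *Cma1* and *Fcer1a* at 0. The lists of neutrophils, dendritic cells and T and B cells overlapped and summed to at most 291, 20.7 and 7.28. The part of other cells in the results was not tested. These are bulk samples, in which a change in the number of cells of a type and a change in RNA per cell cannot be told apart.

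Of the 10 genes, 6 were past the threshold in the direction of higher values in Lcn10-KO (*Tfeb*, *Flcn*, *Fnip1*, *Fnip2*, *Rragc* and *Rragd*) and 0 in the direction of lower values, in limma with a mean-variance trend at a Benjamini-Hochberg adjusted p under 0.05. Over all 12091 tested genes 4.70% were called higher and 5.14% lower. At an unadjusted p under 0.05 the 10 genes numbered 7 higher (the 6 called genes and *Tfec*) and 0 lower. Over all tested genes 12.4% were higher and 13.9% lower at this level. The 3 Lcn10-KO values all lay above the 3 WT values in 7 of the 10 (the 6 called genes and *Tfe3*) and in 15.5% of all tested genes. Nothing is read from these counts, since this contrast chose the genes. The median log2 difference of the 10 was 0.24, against −0.0011 over all tested genes. The count of 6 fell to 4, 3 and 0 without Lcn10-KO replicate 1, 2 or 3. Without replicate 3, 6 of the 10 were at an unadjusted p under 0.05, as were 2528 of all 12015 genes tested then. In limma without the trend the count was 0. There 6 of the 10 were at an unadjusted p under 0.05, as were 2713 of all 12091 tested genes. These counts also come from the contrast that chose the genes. *Fnip2*, *Rragc* and *Rragd* were the 3 genes called without Lcn10-KO replicate 2.

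**Figure D1:**
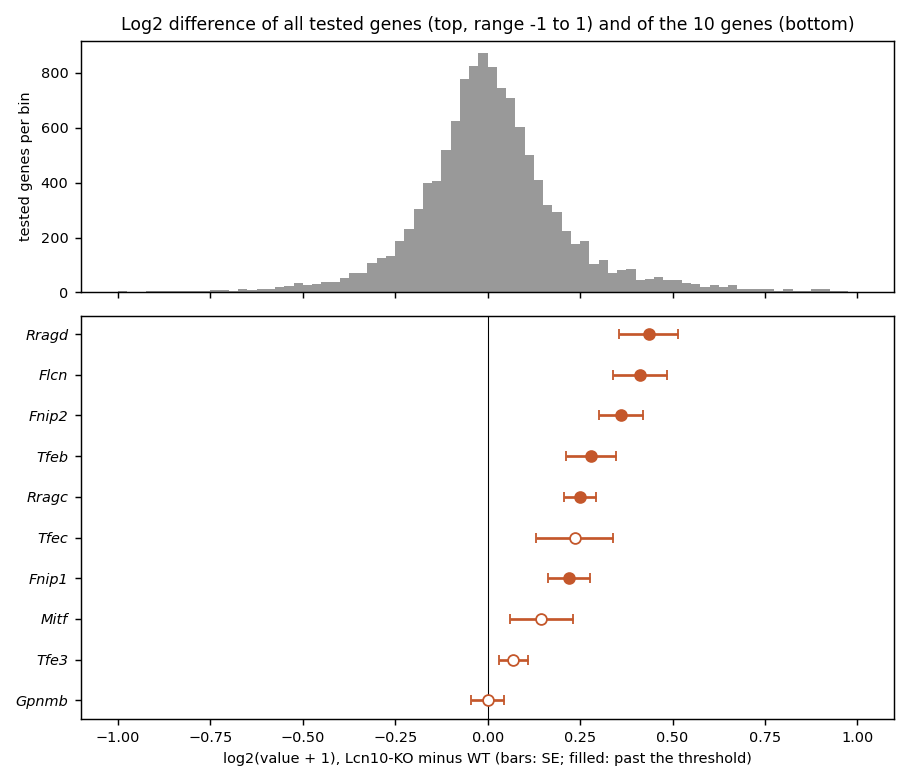
Log2 difference of Lcn10-KO minus WT on the log2(value + 1) scale, as a histogram of tested genes within 1 log2 unit of 0 (top, number of genes per bin) and for each of the 10 genes with its standard error (bottom, filled where past the threshold). *Rragd* lies farthest to the right at 0.44 and *Gpnmb* lies at 0.

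All 3 genes of the folliculin complex were higher in every Lcn10-KO library than in any WT library. *Flcn* (ENSMUSG00000032633.12, chromosome 11, 59791408 to 59810016, minus strand, GRCm38) had normalized counts of 1022, 1244 and 1151 in WT replicates 1 to 3 and 1401, 1560.4 and 1577 in Lcn10-KO replicates 1 to 3. The groups did not overlap, and WT replicate 1 was the lowest library. The means were 1139 ± 112 (SD, n = 3) and 1513 ± 96.8 (SD, n = 3), a 1.33-fold difference and a log2 difference of 0.41 ± 0.07 (SE). Leaving out 1 library at a time put the log2 difference between 0.34 and 0.48.

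*Fnip2* (ENSMUSG00000061175.11, chromosome 3, 79455974 to 79567796, minus strand), the partner whose gene is itself a known target of the factors, stood at 5473, 6240.2 and 5489 in WT against 6867, 7602 and 7609 in Lcn10-KO. Every Lcn10-KO library was above every WT library, with WT replicate 2 the highest of its group. The log2 difference was 0.36 ± 0.06 (SE), or 1.28-fold. *Fnip1* (ENSMUSG00000035992.15, chromosome 11, 54438199 to 54518235, plus strand), the other partner, stood at 2538, 2875 and 2849 in WT and at 3129, 3082 and 3405 in Lcn10-KO. Its groups were separated by a smaller step, between 2875 in the highest WT and 3082 in the lowest Lcn10-KO library, and its log2 difference was 0.22 ± 0.06 (SE), or 1.16-fold.

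Both GTPases of the C and D class were also higher. *Rragd* (ENSMUSG00000028278.14, chromosome 4, 32983037 to 33022180, plus strand), the RagD gene, had normalized counts of 320.4, 344 and 301 in WT and 407, 434 and 466 in Lcn10-KO, without overlap. Its log2 difference of 0.44 ± 0.08 (SE), or 1.35-fold, was the largest of the 10 genes, and it ranged from 0.39 to 0.48 when 1 library at a time was left out. *Rragc* (ENSMUSG00000028646.16, chromosome 4, 123917446 to 123936997, plus strand), the RagC gene, stood at 4484, 4805 and 4718 in WT against 5361, 5564 and 5728 in Lcn10-KO. These groups were likewise separate, and the replicates of *Rragc* lay close together, with coefficients of variation of 3.55% in WT and 3.31% in Lcn10-KO. The log2 difference of *Rragc* was 0.25 ± 0.04 (SE), or 1.19-fold.

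RagC and RagD work as heterodimers with RagA or RagB, whose genes were not chosen. *Rraga* stood at a mean of 1111 ± 12.7 (SD, n = 3) normalized counts per kilobase in WT and 1073 ± 11.1 in Lcn10-KO, and its log2 difference of −0.05 ± 0.04 (SE) did not pass the test (limma adjusted p = 0.503), although all 3 Lcn10-KO values lay below all 3 WT values, as in 16.9% of all tested genes. *Rragb* was far lower, at 23.8 ± 5.70 and 22.0 ± 1.02 per kilobase, with a log2 difference of −0.09 ± 0.20 (adjusted p = 0.835).

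Among the 4 transcription factors the log2 differences ran from 0.07 to 0.28, with *Tfeb* the highest. *Tfeb* (ENSMUSG00000023990.18, chromosome 17, 47737030 to 47792419, plus strand), a main activator of lysosomal genes, had normalized counts of 846, 1006 and 851 in WT against 1131, 1086 and 1053 in Lcn10-KO. The groups were separated by a step from 1006 to 1053, with WT replicate 2 well above the other WT libraries. Its log2 difference was 0.28 ± 0.07 (SE), or 1.21-fold, and lay between 0.24 and 0.36 when 1 library at a time was left out. The call of *Tfeb* was lost without WT replicate 3 or any 1 Lcn10-KO library.

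*Tfe3* (ENSMUSG00000000134.17, chromosome X, 7762560 to 7775202, plus strand), its close relative, stood at 2628, 2614 and 2631 in WT against 2741, 2743 and 2774 in Lcn10-KO. The replicates of *Tfe3* were the tightest of the 10 genes in WT (coefficient of variation 0.362%) and the groups did not overlap, but the difference was small, 1.05-fold or 0.07 ± 0.04 (SE) on the log2 scale. The standard error of limma exceeds the spread of these 6 values because it is drawn toward that of genes of like level.

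*Mitf* (ENSMUSG00000035158.15, chromosome 6, 97807052 to 98021349, plus strand), the founding factor of the family, ranged from 1536 to 2024 in WT (1536, 2024 and 1763) and stood at 1937, 1951 and 1962 in Lcn10-KO. WT replicate 2 was above all 3 Lcn10-KO libraries, so the groups overlapped, and the log2 difference of 0.15 ± 0.09 (SE) moved between 0.046 without WT replicate 1 and 0.24 without WT replicate 2. The gene is read from several promoters, 3 of which are in the promoter table used here, and the gene-level values do not separate them. *Tfec* (ENSMUSG00000029553.10, chromosome 6, 16833373 to 16898441, minus strand), the family member most restricted to myeloid cells, had 355, 323 and 436 in WT and 413, 422 and 469 in Lcn10-KO, with WT replicate 3 inside the Lcn10-KO range. Its log2 difference was 0.24 ± 0.10 (SE), and it moved between 0.14 without WT replicate 2 and 0.36 without WT replicate 3.

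*Gpnmb* (ENSMUSG00000029816.10, chromosome 6, 49036546 to 49070929, plus strand) is a transmembrane glycoprotein gene that MITF and TFE3 are known to activate. It had the smallest log2 difference of the 10. Its normalized counts were 151752, 134988 and 139637 in WT against 141395, 141817 and 142705 in Lcn10-KO. The Lcn10-KO libraries lay inside the WT range, the log2 difference was 0.00 ± 0.05 (SE), and its sign turned between settings, from −0.045 under quantile normalization to 0.048 without WT replicate 1. *Gpnmb* was the 6th most abundant of all rows and took 0.657% to 0.740% of each library.

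**Figure D2:**
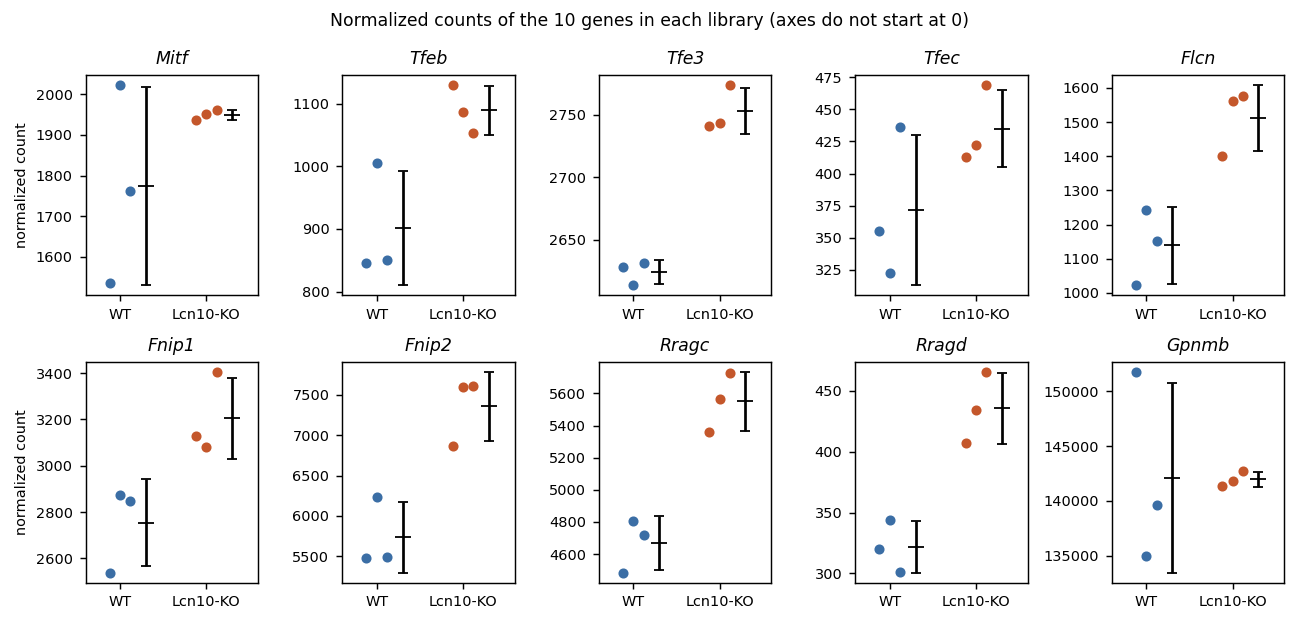
Normalized counts (vertical axes, which do not start at 0) of the 10 genes in each of the 3 WT and 3 Lcn10-KO libraries, in the order of replicates 1 to 3, with the mean and SD beside the points. The 3 Lcn10-KO points lie above the 3 WT points in 7 genes, and the groups overlap in *Mitf*, *Tfec* and *Gpnmb*.

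Libraries of 1 genotype also differed among themselves. WT replicate 1 was the lowest WT library in 6 of the 10 genes (*Mitf*, *Tfeb*, *Flcn*, *Fnip1*, *Fnip2* and *Rragc*) and in 37.4% of all tested genes, while for *Gpnmb* it was the highest. Without WT replicate 1 the number of the 10 genes past the threshold was again 6. Lcn10-KO replicate 3 was the highest Lcn10-KO library in 9 of the 10 genes, all but *Tfeb*, and in 36.4% of all tested genes. The coefficient of variation was smaller in Lcn10-KO than in WT for 8 of the 10 genes, against 63.4% of all tested genes. For *Mitf* it was 13.8% in WT and 0.646% in Lcn10-KO.

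The bases before the start sites were searched because several of these genes are known targets of the factors. RefSeq promoters of GRCm38.p6, from 250 bases before to 50 bases after a start, were matched by symbol for all 10 genes, 15 promoters in all. The CLEAR core TCACGTG, on either strand, was found in 2 of them, those of *Fnip1* and *Rragc*, and in 3.77% of all 32851 promoters in the table. Both matches hold the plain E-box CACGTG, which was found in the same 2 and in 7.15% of all promoters. The M-box TCATGTG, a motif of Mitf in pigment cells, was in 0 of the 15 and in 3.77% of all promoters. The match began 75 bases before the start in *Fnip1* and 112 bases before it in *Rragc*. The 250 bases before the start are printed for these genes (*Fnip1*, chr11:54437929-54438178, plus strand, and *Rragc*, chr4:123917183-123917432, plus strand), beside those of *Flcn* (chr11:59810040-59810289, minus strand) and *Rragd* (chr4:32982748-32982997, plus strand), the genes with the largest differences and no match in this window. Capitals mark the CLEAR core as read on the strand of the gene.
Fnip1: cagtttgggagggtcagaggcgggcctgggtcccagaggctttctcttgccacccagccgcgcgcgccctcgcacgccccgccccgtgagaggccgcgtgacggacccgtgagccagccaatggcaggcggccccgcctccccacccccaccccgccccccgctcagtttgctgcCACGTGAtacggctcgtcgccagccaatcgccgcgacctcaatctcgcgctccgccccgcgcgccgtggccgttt
Rragc: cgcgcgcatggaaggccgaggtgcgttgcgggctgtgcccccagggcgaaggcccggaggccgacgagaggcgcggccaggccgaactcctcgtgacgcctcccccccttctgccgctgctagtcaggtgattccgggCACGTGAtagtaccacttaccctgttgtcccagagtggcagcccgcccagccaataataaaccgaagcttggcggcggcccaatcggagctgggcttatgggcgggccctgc
Flcn: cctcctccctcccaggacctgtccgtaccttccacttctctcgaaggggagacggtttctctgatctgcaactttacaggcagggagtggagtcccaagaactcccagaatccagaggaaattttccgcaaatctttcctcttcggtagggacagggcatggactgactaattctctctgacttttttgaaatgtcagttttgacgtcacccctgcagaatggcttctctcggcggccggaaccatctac
Rragd: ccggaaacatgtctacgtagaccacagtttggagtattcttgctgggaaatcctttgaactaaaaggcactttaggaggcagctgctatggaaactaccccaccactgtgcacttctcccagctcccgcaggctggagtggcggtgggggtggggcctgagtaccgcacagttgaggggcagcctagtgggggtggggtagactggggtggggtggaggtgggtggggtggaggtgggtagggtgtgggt
The presence of these letters is a description and does not show binding.

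Levels were compared between genes per kilobase of the longest coding transcript. *Gpnmb* came first with a mean of 38381 normalized counts per kilobase over the 6 libraries, 19.5 times the level of *Rragc* at 1971, which in turn was 2.20 times that of *Fnip2* at 897. *Tfe3* followed at 793, *Fnip1* at 476, *Tfeb* at 425, *Flcn* at 386, *Mitf* at 382, *Tfec* at 226 and *Rragd* at 74.9. The libraries of *Fnip2* and *Tfe3* overlapped, with *Fnip2* higher in 4 of 6, and so did those of the neighbours *Fnip1*, *Tfeb*, *Flcn* and *Mitf*, although *Fnip1* was above *Tfeb* within each of the 6 libraries. *Mitf* was above *Tfec*, and *Tfec* above *Rragd*, in 6 of 6 libraries without overlap. With the median length of the coding transcripts in place of the longest, *Tfeb*, which has 12 annotated coding transcripts, moved from place 6 to place 3, and *Mitf* from place 8 to place 5, with 875 normalized counts per kilobase. *Tfe3* then moved from place 4 to 6, *Fnip1* from 5 to 7, and *Fnip2* and *Flcn* by 1 place each, so the order of the 6 genes depends on the length used. *Gpnmb*, *Rragc*, *Tfec* and *Rragd* kept their places.

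Paralogs were used unequally. *Rragc* was 27.3, 27.2 and 30.5 times as high as *Rragd* per kilobase in WT replicates 1 to 3 and 25.7, 25.0 and 24.0 times in Lcn10-KO, without overlap. *Fnip2* exceeded *Fnip1* in all 6 libraries, by 1.85, 1.86 and 1.65 times in WT and 1.88, 2.11 and 1.91 times in Lcn10-KO. Among the 4 factors *Tfe3* made up 42.1% to 47.0% of the summed level per kilobase in the 6 libraries and *Tfec* 10.1% to 14.0%. With median transcript lengths *Tfe3* made up 21.2% to 25.0% and *Tfeb* 42.9% to 48.8%, which turns their order, while *Tfec* was the lowest of the 4 by either length. This turn rests on the short median length of *Tfeb*, 551 bases against 2342 for its longest coding transcript. For *Tfe3* the 2 lengths are 3076 and 3390 bases. The share of *Tfeb* by median length is therefore not a firm measure of its level.

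**Figure D3:**
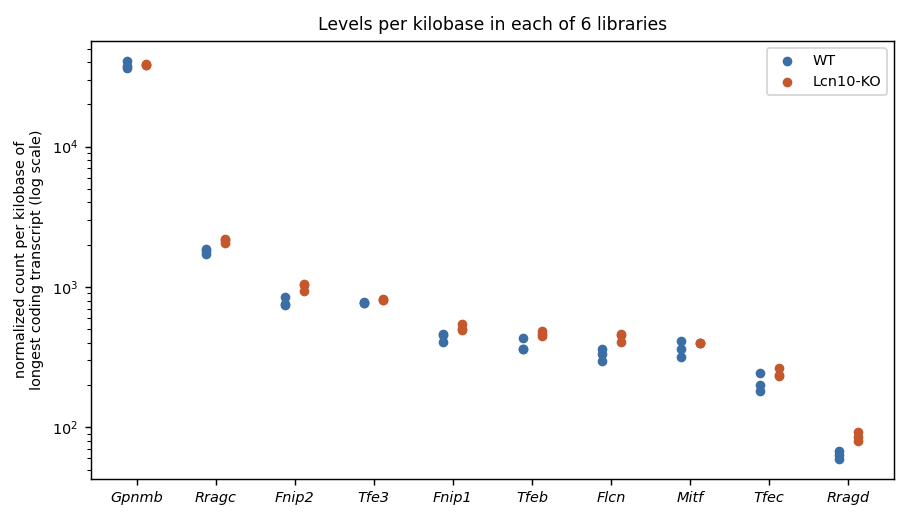
Normalized counts per kilobase of the longest coding transcript (log axis) for the 10 genes in the 3 WT and 3 Lcn10-KO libraries, 1 point per library. The genes span from *Gpnmb* at a mean of 38381 to *Rragd* at 74.9.

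The genes with the profiles most like those of the 3 members with the largest differences were found by the root mean square difference of log2(value + 1), centred on the mean of the 6 libraries. For *Flcn* these were *Mcoln2*, a cation channel of endosomes and lysosomes, at 0.023 log2 units, *Atp13a2*, a polyamine transporter of the lysosome, at 0.023, and *Tecpr1*, a tether in autophagosome maturation, at 0.032. *Atp13a2* stood at 4069, 5030.0 and 4525 in WT and 5635, 6287 and 6088 in Lcn10-KO. For *Fnip2* they were *Tnfrsf1b*, a receptor of tumour necrosis factor (0.025), *Snx24*, a sorting nexin (0.032), and *Tnfaip2* (0.033). For *Rragd* they were *Cnbd2* (0.034), *Klhl23* (0.040) and *Gab3*, a docking adaptor (0.047). The median over all tested genes was 0.25 for *Flcn* and *Rragd* and 0.22 for *Fnip2*. Genes found in this way share the genotype difference of their member by construction.

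The genes around the loop were taken from lists of known roles, which overlap in part. The lists of CLEAR targets and of regulators share *Mcoln1* and *Gabarap*, and the lists of CLEAR targets and osteoclast genes share *Clcn7* and *Atp6v0d2*. Over all tested genes 9.84% were called in either direction, 4.70% higher and 5.14% lower. At an unadjusted p under 0.05, 12.4% were higher and 13.9% lower. The genotypes did not overlap in 15.5% of all tested genes on the higher side and in 16.9% on the lower side.

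In the Rag, Ragulator and mTORC1 list 1 of 16 tested genes rose, 0 fell and 15 did not pass, with a median log2 difference of 0.01. At an unadjusted p under 0.05 the list had 1 higher and 1 lower, and the genotypes did not overlap in 3 higher and 2 lower. *Lamtor3*, a subunit of the Ragulator scaffold that anchors the Rag GTPases to the lysosome, had 1720.3, 1894 and 1808 in WT and 1973, 2061 and 2180 in Lcn10-KO (log2 difference 0.20 ± 0.05 (SE), limma adjusted p = 0.0348). Its call was lost after removal of WT replicate 3 or of any Lcn10-KO library. *Mtor* and *Rptor*, the kinase and its substrate adaptor, had log2 differences of −0.10 ± 0.05 and −0.13 ± 0.06 (limma adjusted p = 0.225 and 0.156).

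In the list of GATOR, TSC and amino acid sensors, which act upstream of the Rag GTPases and of mTORC1, 0 of 20 genes passed limma in either direction. At an unadjusted p under 0.05 the list had 2 higher and 1 lower, and its median log2 difference was 0.00. The genotypes did not overlap in 2 higher and 2 lower genes. The list had 1 call without WT replicate 1, that of *Sesn1*, a stress-induced leucine sensor (log2 difference 0.55 ± 0.18 with all libraries), and 1 without WT replicate 2, that of *Tsc1*, a subunit of the complex that restrains Rheb (0.22 ± 0.07). Both genes were named after their values were seen.

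Among 28 regulators of the location and stability of the factors, 2 rose, 2 fell and 24 did not pass, with a median log2 difference of −0.06. At an unadjusted p under 0.05 the list had 3 higher and 7 lower. The genotypes did not overlap in 4 higher and 10 lower genes, against 15.5% higher and 16.9% lower over all tested genes. *Gabarapl1*, of the Atg8 family whose members can bind the folliculin complex, had normalized counts of 2082, 2309 and 2435 in WT and 2787, 2865 and 2875 in Lcn10-KO, a rise without overlap and a log2 difference of 0.32 ± 0.05 (SE, limma adjusted p = 0.0056). This call survived the removal of each single library. *Prkcd*, a protein kinase C, rose by 0.18 ± 0.04. *Xpo1*, the exportin that carries the factors out of the nucleus, had 5794, 5513 and 5212 in WT and 4660, 4749 and 4805 in Lcn10-KO, a fall without overlap (log2 difference −0.22 ± 0.05, limma adjusted p = 0.0141). *Map4k3*, a kinase that can phosphorylate Tfeb, fell by 0.22 ± 0.05 on the log2 scale. *Mcoln1*, the lysosomal calcium channel, was not past the threshold (0.09 ± 0.05), nor was *Ppp3cb*, a catalytic subunit of the phosphatase calcineurin (−0.08 ± 0.04). The list had 1 call, that of *Gabarapl1*, without any 1 of the Lcn10-KO replicates.

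The CLEAR network list holds lysosomal and autophagy genes known as targets of Tfeb. Of its 42 tested genes 17 rose, 1 fell and 24 did not pass, with a median log2 difference of 0.13, and at an unadjusted p under 0.05 the list had 26 higher and 1 lower. The genotypes did not overlap in 31 higher genes and 1 lower gene of the list. Lysosomal genes had been seen to be higher in these libraries before the list was drawn up. *Scpep1*, a serine carboxypeptidase of the lysosome, rose, with 5924, 6621 and 6528 in WT and 7781, 7684 and 7587 in Lcn10-KO, a log2 difference of 0.27 ± 0.05 (limma adjusted p = 0.00561). *Psap*, *Ctsb* and *Atp6v1a*, the genes of prosaposin, cathepsin B and a proton pump subunit, were the others among the 4 smallest p-values, with log2 differences of 0.34 ± 0.04, 0.21 ± 0.04 and 0.27 ± 0.05. Under quantile normalization *Psap* was at 0.19 and still past the threshold, and *Ctsb* was at 0.063 and not past it. The single gene that fell, named after its value was seen, was *Hif1a*, the hypoxia-inducible factor (−0.16 ± 0.04), whose call was lost without WT replicate 3 or any 1 Lcn10-KO library. *Ppargc1a*, a mitochondrial coactivator gene, was at most 4.25 in any library and was not tested. The list had 6, 2 and 3 calls without Lcn10-KO replicate 1, 2 or 3.

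The osteoclast list holds genes of osteoclast formation and function, several of them known targets of MITF and TFE3. Of its 12 tested genes 2 rose, 1 fell and 9 did not pass, with a median log2 difference of 0.12. At an unadjusted p under 0.05 the list had 5 higher and 1 lower. The genotypes did not overlap in 5 higher genes and 1 lower gene. *Atp6v0d2*, a proton pump subunit of osteoclasts and macrophages, had 2857, 4056 and 3733 in WT and 5690.2, 6180 and 6676 in Lcn10-KO, a log2 difference of 0.81 ± 0.15 (limma adjusted p = 0.034) without overlap. Its call was lost when every row above 0 in any library was fitted (limma adjusted p = 0.057), and without WT replicate 3 or any 1 Lcn10-KO library. *Tcirg1*, another pump subunit, rose by 0.17 ± 0.04, and *Tnfrsf11a*, which codes for the receptor RANK, fell by 0.25 ± 0.06 on the log2 scale. *Mmp9* had the largest log2 difference of the list, 0.92 ± 0.26, and did not pass (limma adjusted p = 0.0528). *Oscar* and *Car2* were at most 3.38 and 5.20 in any library and, with *Calcr*, were not tested. The list had 5 calls without WT replicate 2. Removal of WT replicate 3 or of Lcn10-KO replicate 1 left 1 call, that of *Tnfrsf11a*. Removal of Lcn10-KO replicate 2 or 3 left 0, with 5 genes of the list at an unadjusted p under 0.05. Over all genes tested then, 2224 of 12002 and 2528 of 12015 were at an unadjusted p under 0.05.

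Around *Gpnmb*, 5 of the 8 genes of its binding partners and sheddases fell, 0 rose and 3 did not pass, with a median log2 difference of −0.16. At an unadjusted p under 0.05 the list had 5 lower and 0 higher. The genotypes likewise did not overlap in 5 lower and 0 higher genes. *Itgav*, the integrin alpha v subunit, had 7766, 7432 and 6936 in WT and 5344, 4521 and 4866 in Lcn10-KO, a log2 difference of −0.59 ± 0.06 (limma adjusted p = 0.000766). *Adam10*, a protease that sheds the extracellular part of Gpnmb, had 7089, 6253 and 6266 in WT and 5229.8, 4994 and 5159.5 in Lcn10-KO (−0.35 ± 0.05, limma adjusted p = 0.00264). For both genes all Lcn10-KO values lay below all WT values, and both calls survived the removal of each single library. *Cd44*, a hyaluronan receptor, fell by 0.16 ± 0.04, and *Itga5*, named after its value was seen, by 0.34 ± 0.08, a call that quantile normalization ended (limma adjusted p = 0.0547). *Sdc4* and *Itgb1*, a syndecan and an integrin subunit, had log2 differences of 0.14 ± 0.07 and 0.01 ± 0.04 and did not pass. Without any 1 of the Lcn10-KO replicates 2 calls were left, those of *Itgav* and *Adam10*.

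**Figure D4:**
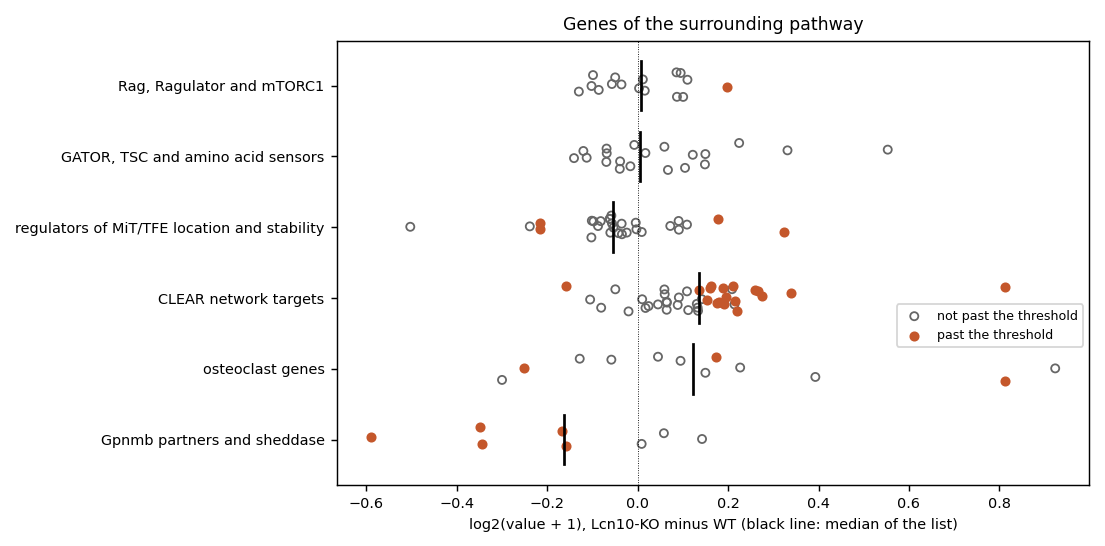
Log2 difference of Lcn10-KO minus WT on the log2(value + 1) scale for each tested gene of the 6 lists, with filled points past the threshold and the list median as a black line. The CLEAR targets have a median of 0.13 and the Gpnmb partners of −0.16.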

How the data were processed

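The study sequenced RNA of 6 libraries, 3 per genotype. The submitters' processing notes name bcl2fastq, STAR 2.6.1a, Salmon 0.11.2, DESeq2 and build mm10 without their roles, with annotation, filters and strand setting not given in the sources used here. What was deposited is a table of signal values, read counts that the authors scaled, with nearly equal totals and not whole, so no count test was run.

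The 10 genes and the lists were chosen with earlier results of these data known. Rows at 10 or more in 3 or more libraries (12091 of 24972) were fitted as log2(value + 1) by limma 3.58.1 (R 4.3.3) on genotype alone, using a mean-variance trend with robust estimation, and Benjamini-Hochberg adjustment ran over every tested gene (threshold 0.05). This scale understates changes of low genes. The procedure was also run on simulated counts with the same dispersion for every gene. That run does not check the calls under the unequal spread of real genes. Named were the 10 genes, *Lcn10*, up to 4 called genes per list by p and the 3 profiles most like each of the 3 genes that differed most. Other named genes, including *Rraga* and *Rragb*, were picked with their values in view. One result among the called list genes is not reported here. Positions and transcript lengths came from GENCODE M21 on GRCm38, which is the same assembly as mm10. Of 7 annotated genes that overlap the 10, the 1 with a row, *Gm17359* opposite *Fnip2*, was listed at 0. Figures were drawn with matplotlib 3.10.9.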

Additional observations from a re-analysis of the deposited data

How the results depend on the processing

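Quantile normalization, rescaling by the median ratio, no filter on low values and pseudocounts of 0.5 and 10 left the number of the 10 genes past the threshold at 6 and every list's count within 1.5 times. No called gene named among the 10 genes or the 6 lists changed its sign in any of the 14 alternatives. In limma without the mean-variance trend the calls fell from 1190 to 14 over all genes, with 2713 of 12091 at an unadjusted p under 0.05. Among the 10 genes they fell from 6 to 0 (6 at an unadjusted p under 0.05). Each of the 6 lists had 0 calls, with 1 (Rag, Ragulator and mTORC1) to 26 (CLEAR) genes at an unadjusted p under 0.05. A filter of at least 50 gave 5 osteoclast genes. When each library was left out in turn, the calls ranged from 175 to 1664 over all genes, 0 to 7 among the 10 genes, 0 to 1 in the Rag, Ragulator and mTORC1 list and in the GATOR list, 1 to 5 among the regulators, 2 to 21 in the CLEAR list, 0 to 5 among osteoclast genes and 2 to 5 among the Gpnmb partners. The lowest counts over all genes came without Lcn10-KO replicate 3 (175), 2 (207) and 1 (566).

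With the replicate number as a block, 1607 genes were called in all and 6 of the 10 genes, with 5 osteoclast genes and 1 gene of the GATOR list, and it moved no other list's count by over 1.5 times. The labels do not state whether the numbers pair the samples. Same-numbered libraries deviated from their group means with correlations of 0.038, 0.073 and 0.014, and libraries with different numbers with −0.063 to 0.026. Not every library correlated best with its own number. Correlations this weak cannot settle whether the samples were paired.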
